A study of Mus musculus with 12 samples.

Results

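The spliceosome components described here are the 127 genes, of 56980 in the deposited count table, that its pathway annotation places in the Spliceosome map. They were chosen as the rows whose annotation names that map and names neither protein processing in the endoplasmic reticulum nor ribosome biogenesis in eukaryotes. Of 132 rows in the map, 5 were left out by that rule. The members were sorted by role into 11 SR proteins, 8 hnRNPs, 42 proteins of the small nuclear ribonucleoproteins (snRNPs) and 66 other spliceosome proteins. The rule itself uses no measured value, but members and roles were chosen with earlier results of these data known.

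Bulk RNA sequencing was done on whole livers of male B6.Cg-Lepob/J (ob/ob, Lep-/-) mice, which lack leptin and become obese. The mice ate a low protein diet (LPD, 5% of energy from protein) or a standard protein diet (SPD, 25%) for 3 weeks. They started at 8 weeks of age and were 11 weeks old at harvest, with 6 livers per diet. All 12 mice carried the ob/ob genotype and ate freely, so the comparison asks what protein restriction did within obese animals, and no lean mice were compared.

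The spliceosome removes introns from nuclear transcripts. U1 snRNP pairs with the 5′ splice site, U2 snRNP with its SF3a and SF3b subcomplexes binds the branch point, the U2AF dimer reads the 3′ splice site, and the U4/U6.U5 tri-snRNP then joins and is remodelled by helicases into the catalytic form. SR proteins bind exons and favour their inclusion, while many hnRNPs coat nascent transcripts and often oppose it. Livers use this machinery in every cell type, and mRNAs of several of its proteins carry exons that are themselves alternatively spliced.

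Total counts per library were 19404340 to 23681408 in LPD livers and 19374676 to 23710930 in SPD livers. The 4 hepatocyte markers found, of 5 listed, summed to 57539.8 to 81740.4 CPM (counts scaled to a common library size, with totals scaled by the trimmed mean of M-values) in LPD livers and to 69229 to 78739.9 CPM in SPD livers. LPD replicates 2 and 5 stood apart: on principal component 1, which held 47.1% of the variance, they lay at -48.7 and -44.6, the other LPD livers between -22.5 and -15.3, and the SPD livers between 24.7 and 32.1. LPD replicate 1 carries the 25% protein content in its treatment and description labels but LPD in its title and library code, and was kept in LPD. Library codes begin LP4 or LP5 in LPD and SP1 or SP2 in SPD. The labels name no batch, and if these codes stand for batches, they and the diet cannot be told apart. The labels give no origin of the replicates beyond 6 mice per diet.

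Spliceosome mRNAs were higher, by small amounts, in LPD livers. Of 123 members with enough counts to test, 56 (45.5%) were higher and 4 (3.25%) lower in LPD livers at an adjusted p under 0.05 (edgeR quasi-likelihood F test, Benjamini-Hochberg over 13768 genes). Over all 13768 tested genes, 20.7% were higher and 19.2% lower. The 63 members that did not pass include 16 with an unadjusted p under 0.05. The log2 fold change, LPD over SPD, was above 0 for 100 members and below 0 for 23, against 49.9% of all tested genes above 0. Its median was 0.16 over the members, which is 1.12-fold, and -0.00059 over all tested genes.

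The shift was broad and shallow. A change of at least 1.5-fold in either direction was found for 4 of 123 members, against 1943 of all 13768 tested genes (14.1%). The median size of the log2 fold change regardless of sign was 0.196 for members and 0.224 for all tested genes. Of all tested genes 7765 averaged at least 10 CPM, and the size of change was not compared within that level. For 33 members every LPD liver lay above every SPD liver, against 10.2% of tested genes. For 0 members did every LPD liver lie below every SPD liver, against 9.73% of tested genes. Members are mostly well expressed, and among genes averaging at least 10 CPM the background is higher: 29.0% of such genes were called higher and 20.0% lower, beside 51 of 104 such members (49.0%) called higher and 3 lower.

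The summed level of all tested members separated the diets. It averaged 4900.4 ± 101 CPM in LPD livers and 4334 ± 61.6 CPM in SPD livers (SD, n = 6 each), and the LPD range of 4713 to 5005 CPM lay above the SPD range of 4277 to 4439 CPM. The median member deviated from its SPD mean by 0.13 to 0.20 log2 units in single LPD livers and by -0.022 to 0.034 in single SPD livers. In bulk tissue, fewer cells of a type and less RNA per cell cannot be told apart.

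The counts were repeated without the libraries in doubt. Without LPD replicates 2 and 5, 48 members were called higher and 2 lower. Of all 14110 genes then tested, 16.7% were higher and 2234 genes lower. Counting LPD replicate 1 as SPD, as its treatment label has it, gave 46 higher and 0 lower. Of all 13956 genes then tested, 16.2% were higher and 2224 genes lower. The SP1 and LP4 libraries alone (4 per diet) gave 39 higher and 0 lower. Of all 13824 genes then tested, 13.2% were higher and 1693 genes lower. All 56 higher members kept a positive sign in each of the 23 alternatives, and 33 of them were called in each. Of the 4 lower members, 0 were called in every alternative, though all 4 kept a negative sign.

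Marker lists of other kinds were also compared between the diets. Over all tested genes 19.2% were lower in LPD livers. Of 10 mitosis genes listed, 9 were tested and 9 were lower, and the list summed to 6.14 to 12.9 CPM in LPD livers against 29.1 to 37.9 CPM in SPD livers. The 5 lipid-associated macrophage markers summed to 95.3 to 289 CPM in LPD livers against 366 to 637 CPM in SPD livers, with 2 of 5 lower. The 5 Kupffer cell markers (1 lower) summed to 403 to 577 CPM in LPD livers against 481 to 734 CPM in SPD livers, the 6 stellate cell markers (2 lower) to 325 to 550.3 CPM in LPD livers against 448 to 628 CPM in SPD livers, and the 5 sinusoidal endothelial markers (1 lower) to 247 to 293 CPM in LPD livers against 285 to 321 CPM in SPD livers. The ranges of the diets overlapped for the Kupffer cell, stellate cell and sinusoidal endothelial lists. Sums for cholangiocyte, T cell, B cell and neutrophil markers stayed under 30 CPM in every liver, with 1 B cell and 1 neutrophil marker lower. No marker of any list was at 0 in all livers. The part of any of these differences in the spliceosome result was not tested.

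**Figure D1:**
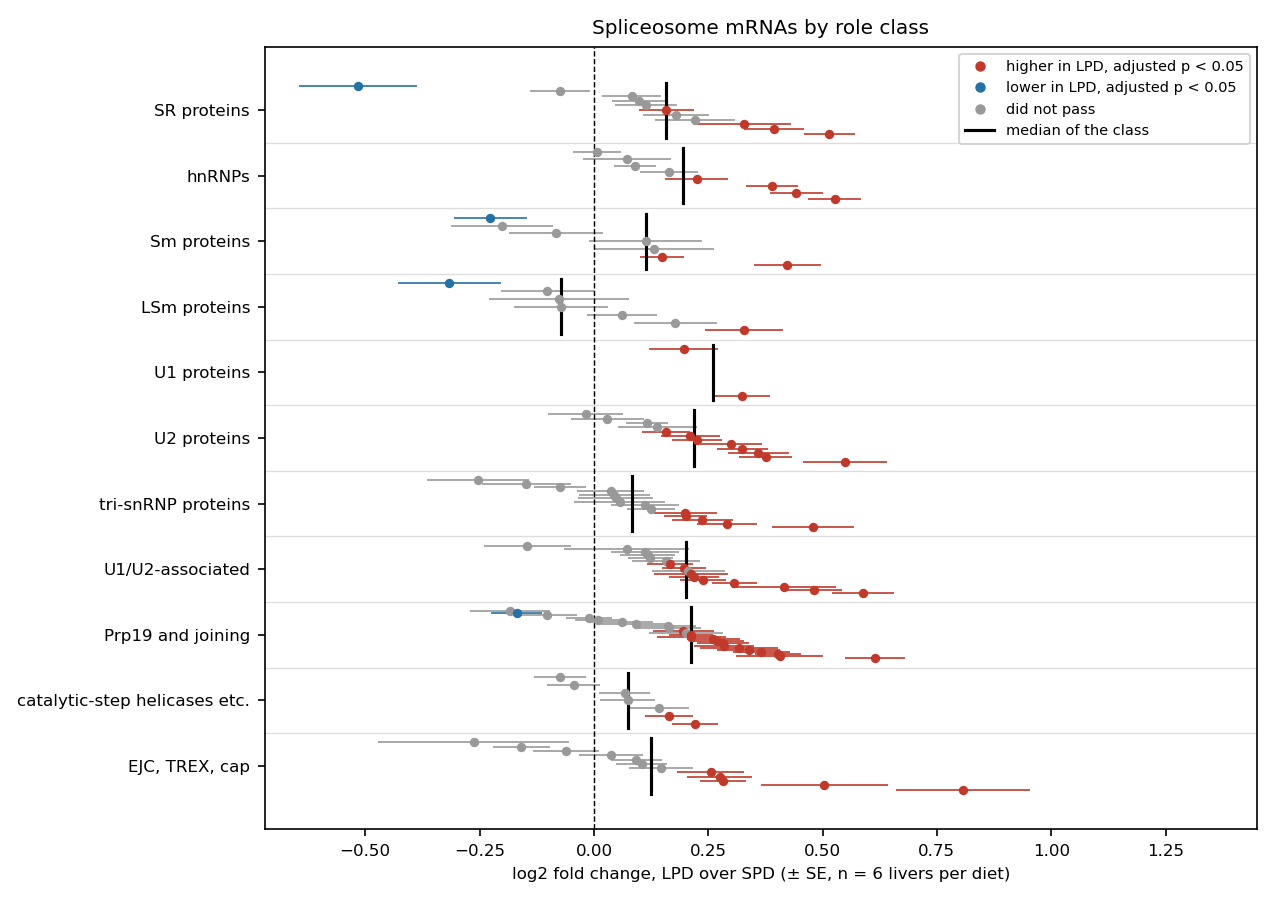
Log2 fold change, LPD over SPD (horizontal axis, ± SE, 6 livers per diet), of the tested spliceosome members with a role class; each point is a gene and each black bar the median of its class. Most points lie to the right of 0, with class medians from -0.072 for LSm proteins to 0.26 for U1 proteins, and the 4 lower genes (blue) are an SR, an Sm, an LSm and a Prp19-group gene.

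Promoter sequence was not used by the rule that chose the members. RefSeq promoter entries (GRCm38.p6) matched 95 of the 127 members, 92 of them tested, and the 250 bases before the start were searched on both strands for 9 short motifs. The ETS-type motif CCGGAAG was present in 31 of 92 member promoters (33.7%), against 13.5% of the promoters of tested genes and 7.05% of all 27025 promoters in the table. A match was found in 13 of 44 promoters of higher members (29.5%) and in 18 of 48 promoters of the other members (37.5%), a difference that was not tested. The promoters of the 3 SF3a subunits, which rose together, of Srsf4, the SR gene with the largest rise, and of Prpf19, which fell, are shown because all 5 hold the motif. This choice was made after the values were seen. Each is the 250 bases before the RefSeq start on the + strand, 5′ to 3′, with the motif in capitals (CCGGAAG, or CTTCCGG where it lies on the other strand).
Sf3a1 (chr11:4160104-4160353): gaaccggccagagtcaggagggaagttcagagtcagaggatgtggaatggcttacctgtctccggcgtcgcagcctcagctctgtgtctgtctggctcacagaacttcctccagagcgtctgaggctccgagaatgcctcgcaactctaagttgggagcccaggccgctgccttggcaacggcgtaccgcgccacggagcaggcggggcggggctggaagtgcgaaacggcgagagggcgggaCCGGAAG
Sf3a2 (chr10:80798485-80798734): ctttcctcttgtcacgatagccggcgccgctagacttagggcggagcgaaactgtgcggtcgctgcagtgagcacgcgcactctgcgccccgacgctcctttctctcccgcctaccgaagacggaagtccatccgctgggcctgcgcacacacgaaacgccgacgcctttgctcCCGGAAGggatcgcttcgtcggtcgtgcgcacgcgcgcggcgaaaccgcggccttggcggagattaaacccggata
Sf3a3 (chr4:124714611-124714860): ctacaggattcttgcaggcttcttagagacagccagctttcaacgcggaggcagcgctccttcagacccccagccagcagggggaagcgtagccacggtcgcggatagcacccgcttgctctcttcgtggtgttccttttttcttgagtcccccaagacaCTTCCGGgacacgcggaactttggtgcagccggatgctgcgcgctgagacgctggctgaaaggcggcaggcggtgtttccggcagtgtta
Srsf4 (chr4:131873387-131873636): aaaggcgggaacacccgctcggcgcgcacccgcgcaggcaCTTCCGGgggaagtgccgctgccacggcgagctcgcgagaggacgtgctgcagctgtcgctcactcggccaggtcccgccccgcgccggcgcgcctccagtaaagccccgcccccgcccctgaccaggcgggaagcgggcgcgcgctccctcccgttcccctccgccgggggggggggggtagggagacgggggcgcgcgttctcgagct
Prpf19 (chr19:10894981-10895230): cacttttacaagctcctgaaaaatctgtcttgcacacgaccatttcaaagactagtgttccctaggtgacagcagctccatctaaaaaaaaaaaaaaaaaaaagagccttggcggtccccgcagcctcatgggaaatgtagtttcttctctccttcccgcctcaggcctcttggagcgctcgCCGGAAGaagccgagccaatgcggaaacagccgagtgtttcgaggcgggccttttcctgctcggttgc

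In these promoters the motif began 7 bases before the start in Sf3a1, 76 in Sf3a2, 90 in Sf3a3, 210 in Srsf4 and 68 in Prpf19. Of the other motifs, the CCAAT box (CCAAT) was in 41.3% of member promoters against 36.8% of those of tested genes, and the GC box (GGGCGG) in 60.9% against 57.2%. The TATA box (TATAAA) was in 8.70% against 6.83%, the E-box (CACGTG) in 5.43% against 8.44%, the cAMP response element (TGACGTCA) in 5.43% against 2.60%, the NRF1 motif (GCATGCGC) in 6.52% against 4.32% and the YY1 motif (AAGATGG) in 4.35% against 4.21%. The amino acid response element core (TGATGNAA), known from genes that answer amino acid shortage, was in 0 of 92 member promoters against 2.05% of those of tested genes. A match is a description of these letters and not of a bound site, and the absence of one says only that the letters are not in this window.

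Among the SR proteins, whose arginine and serine rich tails recruit U1 snRNP and U2AF to exons, 4 of 11 mRNAs (36.4%) were higher in LPD livers. Only 1 (9.09%) was lower, and the median log2 fold change was 0.16. Of all tested genes 20.7% were higher and 19.2% lower, and 29.0% of those averaging at least 10 CPM were higher. The higher SR mRNAs were Srsf4, Srsf3, Srsf7 and Srsf1, and the lower one was Tra2a. Srsf4 had 34.8, 37.7 and 40.7 CPM (lowest, median and highest of 6) in LPD livers against 24.9, 26.5 and 28.6 CPM in SPD livers, a log2 fold change of 0.52 ± 0.056 (SE, adjusted p = 5.82e-06). The diets did not overlap for this gene. Its deposited counts were not whole in 12 of 12 libraries, which makes its values less certain. Srsf3, the smallest SR protein and known in mice to be needed for hepatocyte maturation, had 59.9, 69.6 and 78.7 CPM in LPD livers against 48.3, 53.1 and 57.1 CPM in SPD livers (0.39 ± 0.065, adjusted p = 0.000248). Again every LPD liver was above every SPD liver.

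The other SR risers were weaker. Srsf7, which also takes part in mRNA export, had 17.1, 22.8 and 24.8 CPM in LPD livers against 14.8, 16.7 and 20.3 CPM in SPD livers (0.33 ± 0.10, adjusted p = 0.0189). The diets overlapped, and 1 alternative, the SP1 and LP4 livers, did not call it (adjusted p = 0.0627). Srsf1, the founding member of the family, had 68.1, 74.8 and 82.5 CPM in LPD livers against 60.8, 67.8 and 73.9 CPM in SPD livers (0.16 ± 0.061). Its adjusted p of 0.0493 stood just inside the threshold, and 15 of the 23 alternatives did not call it. Deposited counts of Srsf1 were not whole in 9 libraries. Of the SR-like genes, Tra2a, 1 of 2 mammalian homologues of fly transformer-2 (chr6:49243924-49264033, - strand, GRCm38), fell, while its relative Tra2b did not pass at 0.22 ± 0.087 (adjusted p = 0.0555).

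Tra2a had 8.47, 11.8 and 13.3 CPM in LPD livers against 11.5, 16.3 and 20.4 CPM in SPD livers, a log2 fold change of -0.52 ± 0.13 (adjusted p = 0.00522). Its diets overlapped, because the lowest SPD liver, replicate 1, lay within the LPD range. The call ended when LPD replicate 1 was counted as SPD and when just the SP1 and LP4 livers were used (adjusted p = 0.0681 to 0.0769). Srsf10, Srsf2, Srsf6, Srsf5 and Srsf9 did not pass, with log2 fold changes of 0.18, 0.11, 0.10, 0.08 and -0.07 and adjusted p from 0.0581 for Srsf10 to 0.394 for Srsf9. Per kilobase of gene length, Hnrnpa3 and Srsf5 had the highest mean levels of all members. Srsf5 had 118 CPM per kb in LPD livers and 111 CPM per kb in SPD livers, and did not pass (adjusted p = 0.334).

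The hnRNPs in the map leaned the same way: 4 of 8 were higher and all 8 had a log2 fold change above 0, with a median of 0.19. Hnrnpa3, a close relative of Hnrnpa1, had 145, 153 and 164 CPM in LPD livers against 93.5, 109 and 117 CPM in SPD livers (0.53 ± 0.058, adjusted p = 6.26e-06). Hnrnpu, which binds nascent RNA at the nuclear scaffold, had 175, 190.0 and 196 CPM in LPD livers against 124, 136 and 154 CPM in SPD livers (0.44 ± 0.057, adjusted p = 2.80e-05). Hnrnpc, whose tetramers bind uridine tracts in nascent transcripts, had 79.2, 83.8 and 93.2 CPM in LPD livers against 58.6, 65.0 and 70.0 CPM in SPD livers (0.39 ± 0.057, adjusted p = 8.30e-05). The diets did not overlap for any of these 3 genes.

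Hnrnpa1, a splicing silencer, had 59.2, 62.9 and 73.0 CPM in LPD livers against 48.9, 56.0 and 62.9 CPM in SPD livers (0.22 ± 0.068, adjusted p = 0.0163), with overlap. Deposited counts of Hnrnpa3 and Hnrnpu were not whole in 12 of 12 libraries and those of Hnrnpa1 in 10, which makes their values less certain. Whether reads were shared with other genes was not tested. The 4 hnRNPs that did not pass were Hnrnpm (0.16, adjusted p = 0.0510), Pcbp1 (0.09), Rbmx (0.07) and Hnrnpk (0.01, adjusted p = 0.937). Hnrnpk, a poly(C)-binding protein, had 252, 267 and 285 CPM in LPD livers against 249.7, 269 and 280.5 CPM in SPD livers. Its 2 ranges covered nearly the same values.

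**Figure D2:**
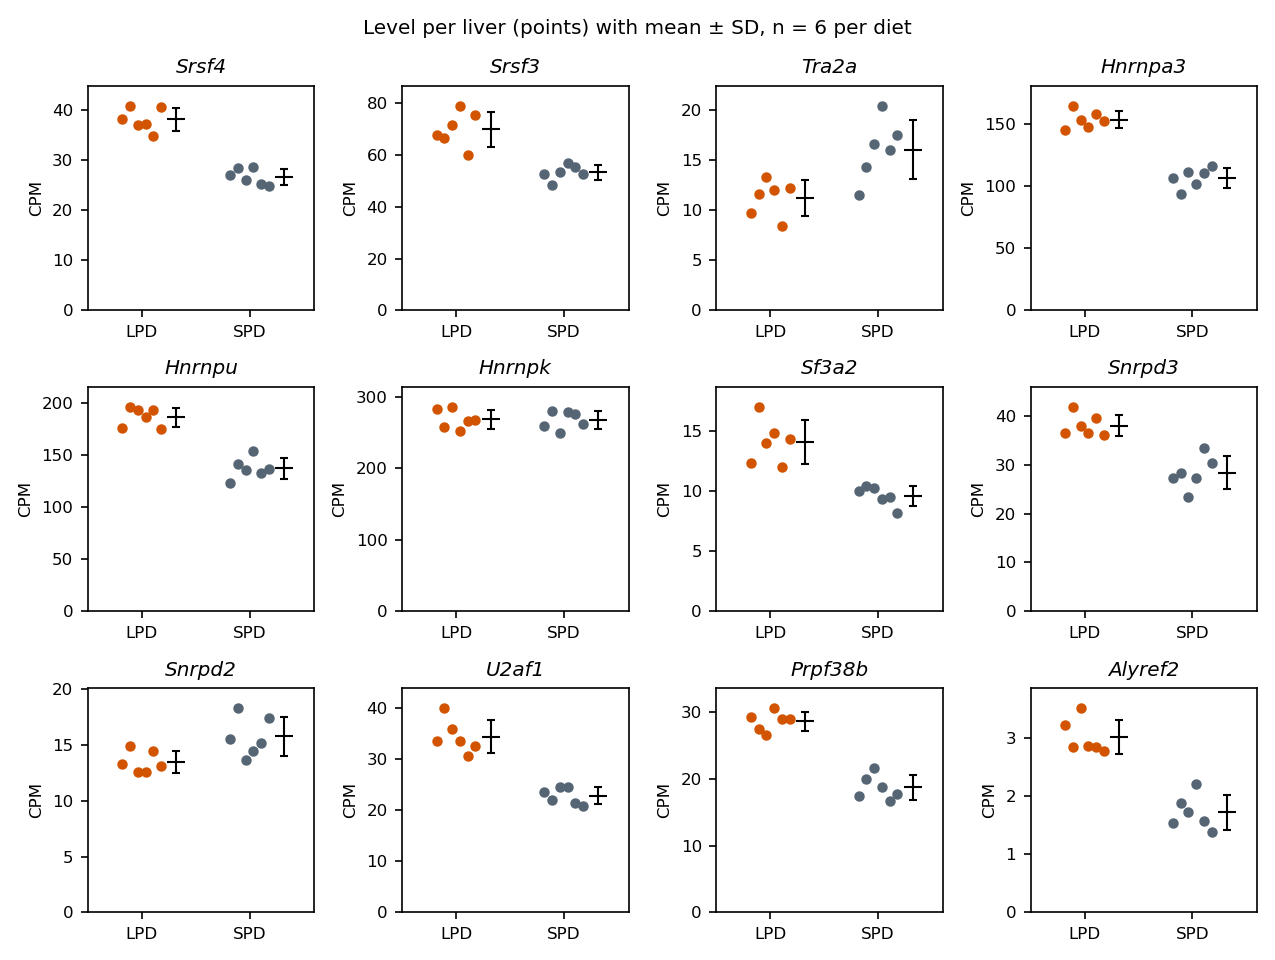
CPM per liver (vertical axis, starting at 0) of 12 spliceosome genes in LPD and SPD livers; points are livers, and the bar beside them is the mean ± SD of 6. Srsf4, Srsf3, Hnrnpa3, Hnrnpu, Sf3a2, Snrpd3, U2af1, Prpf38b and Alyref2 have no overlap between diets, Tra2a and Snrpd2 are lower in LPD livers with overlap, and Hnrnpk is level between them.

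The snRNP proteins were mixed by subunit: 18 of 42 were higher and 2 lower, with a median of 0.13. The U2 particle held 8 of the 18, and both lower genes encode small ring proteins. The Sm proteins form the heptamer that encircles the RNA of U1, U2, U4 and U5. Of 7 members 2 (28.6%) were higher (Snrpd3 and Snrpb) and 1 (14.3%) lower (Snrpd2), beside 20.7% and 19.2% of all tested genes. Snrpd3 had 36.02, 37.2 and 41.7 CPM in LPD livers against 23.4, 27.8 and 33.4 CPM in SPD livers (0.42 ± 0.073, adjusted p = 0.000354), without overlap. Snrpb, encoding SmB, had 29.2, 31.2 and 32.7 CPM in LPD livers against 26.6, 27.9 and 29.4 CPM in SPD livers (0.15 ± 0.048, adjusted p = 0.0215), with slight overlap, and 4 of the 23 alternatives did not call it.

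Snrpd2, the partner of SmD1 in the ring, had 12.6, 13.2 and 14.9 CPM in LPD livers against 13.7, 15.4 and 18.3 CPM in SPD livers (-0.23 ± 0.080, adjusted p = 0.0335). The diets overlapped, and 10 of the 23 alternatives did not call it. Snrpd1, Snrpf, Snrpe and Snrpg did not pass, with log2 fold changes of 0.11, 0.13, -0.08 and -0.20. Genes whose products stand in equal number in 1 ring thus had fold changes from -0.23 to 0.42. Snrpn, which encodes the SmB paralogue SmN from an imprinted locus, is no member, since the deposited annotation does not place it in the map. It had 11.8, 13.7 and 14.9 CPM in LPD livers against 19.0, 20.9 and 25.3 CPM in SPD livers (-0.66 ± 0.081, adjusted p = 1.88e-05), without overlap, and its call held in all 23 alternatives. Its counts were not whole in 8 libraries, while those of Snrpb were whole in all 12, and how reads were assigned at the Snrpn locus was not tested.

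The LSm proteins, which form the corresponding ring on U6, had a median of -0.072. Of 7, Lsm2 was higher and Lsm8, the subunit that sets the nuclear ring apart from the cytoplasmic one, was lower. Each is 14.3% of the class, below the 20.7% higher and 19.2% lower of all tested genes. Lsm2 had 8.67, 10.4 and 11.8 CPM in LPD livers against 7.15, 8.495 and 8.88 CPM in SPD livers (0.33 ± 0.085, adjusted p = 0.00667). Lsm8 had 4.16, 5.71 and 6.34 CPM in LPD livers against 5.97, 6.93 and 8.06 CPM in SPD livers (-0.32 ± 0.11, adjusted p = 0.0349). Both genes overlapped between the diets, and 13 alternatives did not call Lsm8. Lsm2 was at 0.20 and not called when LPD replicate 1 went into SPD (adjusted p = 0.174). Lsm6, the LSm mRNA with the most CPM per kb, had a log2 fold change of 0.18 and did not pass (adjusted p = 0.133).

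Both U1-specific proteins in the map were higher. Snrnp70, the U1-70K protein that contacts SR proteins, had 40.2, 43.0 and 46.5 CPM in LPD livers against 31.1, 35.5 and 38.0 CPM in SPD livers (0.32 ± 0.060, adjusted p = 0.000626), without overlap. Snrpa, another U1-specific protein, had 16.4, 18.5 and 19.3 CPM in LPD livers against 13.4, 16.0 and 17.5 CPM in SPD livers (0.20 ± 0.075). With an adjusted p of 0.0485 it was near the threshold, and 16 of the 23 alternatives did not call it.

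In the U2 particle 8 of 12 genes were higher, and 11 of 12 log2 fold changes were above 0. All 3 subunits of SF3a, which bridges the U2 RNA to SF3b, were higher without overlap, and 5 of 7 SF3b subunits were higher. Sf3a2 had 12.0, 14.2 and 17.0 CPM in LPD livers against 8.19, 9.75 and 10.4 CPM in SPD livers (0.55 ± 0.091, adjusted p = 0.000253). Sf3a1 had 22.9, 26.2 and 27.2 CPM in LPD livers against 18.5, 20.03 and 21.03 CPM in SPD livers (0.38 ± 0.057, adjusted p = 0.000124). Sf3a3 had 18.2, 19.3 and 20.2 CPM in LPD livers against 13.6, 15.7 and 15.9 CPM in SPD livers (0.32 ± 0.056, adjusted p = 0.000339). These are the 3 genes whose promoters are printed above, and Sf3a2 counts were not whole in any of the 12 libraries.

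Within SF3b, Sf3b4 rose most, with 17.8, 19.0 and 21.4 CPM in LPD livers against 12.9, 14.9 and 16.2 CPM in SPD livers (0.36 ± 0.066, adjusted p = 0.000586), without overlap. With LPD replicate 1 counted as SPD, Sf3b4 was at 0.24 and not called (adjusted p = 0.0753). Phf5a, Sf3b3 and Sf3b6 were also higher, with log2 fold changes of 0.30, 0.23 and 0.21. Sf3b1, the large scaffold that clamps the branch point, had 110.0, 121 and 129.7 CPM in LPD livers against 104, 107 and 115 CPM in SPD livers (0.16 ± 0.052, adjusted p = 0.0261), and 7 alternatives did not call it. Sf3b2 (0.12, adjusted p = 0.0583) and Sf3b5 (0.03) did not pass, nor did the U2-specific proteins Snrpb2 (0.14) and Snrpa1 (-0.02).

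Of 14 proteins of the U4/U6.U5 tri-snRNP, 5 (35.7%) were higher and 9 missed the threshold. Of all tested genes 20.7% were higher, and 29.0% of those averaging at least 10 CPM. The class median was 0.084. Prpf3, a U4/U6 protein, had 7.80, 8.07 and 8.61 CPM in LPD livers against 4.83, 6.01 and 6.50 CPM in SPD livers (0.48 ± 0.090, adjusted p = 0.000647), without overlap. Ddx23, the helicase that displaces U1 from the 5′ splice site, had 47.6, 48.7 and 52.4 CPM in LPD livers against 39.97, 44.0 and 44.8 CPM in SPD livers (0.20 ± 0.047, adjusted p = 0.00348), also without overlap. Sart1, which helps the particle to join, had a log2 fold change of 0.29 ± 0.066 (adjusted p = 0.00271), and Prpf4 one of 0.20.

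Prpf8, the U5 protein that cradles the catalytic RNA, had 180.1, 195 and 225 CPM in LPD livers against 156, 169 and 186 CPM in SPD livers (0.24 ± 0.067, adjusted p = 0.0112). The diets overlapped, and the call was lost without LPD replicates 2 and 5 and when just the SP1 and LP4 livers were used (adjusted p = 0.0641 to 0.130). The other U5 helicase and GTPase, Snrnp200 (0.13) and Eftud2 (-0.07), did not pass. Txnl4a, a small U5 protein, had the lowest value of the class at -0.25 and did not pass (adjusted p = 0.0839).

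Among the other spliceosome proteins, 30 of 62 were higher and 1 was lower, with a median of 0.20. Of 16 factors that work with U1 or U2, 9 were higher, including all 3 U2AF genes. U2af1, the small subunit that reads the AG at the 3′ splice site, had 30.7, 33.6 and 40.01 CPM in LPD livers against 20.9, 22.8 and 24.7 CPM in SPD livers (0.59 ± 0.068, adjusted p = 1.09e-05). U2af2, the large subunit that binds the polypyrimidine tract, had 49.2, 50.6 and 52.5 CPM in LPD livers against 38.3, 40.6 and 44.3 CPM in SPD livers (0.31 ± 0.050, adjusted p = 0.000195). Neither gene overlapped between the diets, and neither did U2af1l4, a paralogue of the small subunit (0.42, adjusted p = 0.00939). Deposited counts of U2af1l4 were not whole in 11 libraries, which makes its value less certain.

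Smndc1, whose tudor domain binds dimethylated arginines, had 18.2, 19.0 and 22.1 CPM in LPD livers against 12.9, 13.9 and 15.1 CPM in SPD livers (0.48 ± 0.063, adjusted p = 3.18e-05), without overlap. Ddx5, a DEAD-box helicase and one of the most abundant members at 118 CPM per kb in LPD livers and 100.1 CPM per kb in SPD livers, was higher as well (0.24 ± 0.050, adjusted p = 0.00153), and its 389 to 443 CPM in LPD livers lay above its 335 to 370 CPM in SPD livers. Puf60, Ddx42, Rbm17 and Rbm25 were the other higher genes of this class, with log2 fold changes of 0.17 to 0.22.

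The Prp19 complex and the factors that join with it are the largest class. Of its 23 genes 13 (56.5%) were higher and 1 (4.35%) lower, with a median of 0.21. Over all tested genes 20.7% were higher and 19.2% lower. The higher share was 56.25% among the factors that work with U1 or U2 and 66.7% in the U2 particle. Prpf38b had 26.6, 29.0 and 30.5 CPM in LPD livers against 16.7, 18.2 and 21.6 CPM in SPD livers (0.61 ± 0.066, adjusted p = 5.28e-06). Snw1, also a transcriptional coregulator, had 38.9, 41.1 and 43.8 CPM in LPD livers against 29.4, 31.0 and 34.2 CPM in SPD livers (0.40 ± 0.050, adjusted p = 2.22e-05). Wbp11 (0.37 ± 0.061, adjusted p = 0.000267) and Acin1 (0.28 ± 0.056, adjusted p = 0.00104) followed, and these 4 genes had no overlap between diets. Deposited counts of Snw1 and Acin1 were not whole in 12 of 12 libraries, which makes their values less certain.

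Within the Prp19 core itself the subunits diverged. Cdc5l, Plrg1 and Ctnnbl1 were higher, with log2 fold changes of 0.27, 0.26 and 0.21, while Bcas2 did not pass at 0.06. Prpf19, the ubiquitin ligase that names the complex, had 91.5, 95.0 and 101.7 CPM in LPD livers against 92.9, 109 and 117 CPM in SPD livers (-0.17 ± 0.057, adjusted p = 0.0266). The diets overlapped through SPD replicate 3, and 12 of the 23 alternatives did not call Prpf19. Bud31, the most abundant mRNA of this class per kb, had a log2 fold change of -0.10 and did not pass (adjusted p = 0.224).

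Of 7 factors of the catalytic steps, 2 (28.6%) were higher and 5 missed the threshold. That is near the 29.0% called higher among all genes averaging at least 10 CPM, and 20.7% of all tested genes were higher. The class median was 0.074. Dhx15, the helicase that releases the spent spliceosome, had 68.6, 74.2 and 77.9 CPM in LPD livers against 58.6, 63.5 and 66.4 CPM in SPD livers (0.22 ± 0.049, adjusted p = 0.00242). Dhx38, which remodels the complex between the steps, had 21.4, 22.6 and 23.5 CPM in LPD livers against 18.6, 20.3 and 21.3 CPM in SPD livers (0.16 ± 0.052, adjusted p = 0.0196). Both were without overlap, the 2 ranges of Dhx38 nearly touching. Dhx38 was not called in 3 alternatives (adjusted p up to 0.135) and Dhx15 not in 1, the SP1 and LP4 livers (adjusted p = 0.0695). Slu7, Prpf18, Cdc40, Dhx16 and Dhx8 did not pass, between -0.07 and 0.14.

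Of 12 genes of the exon junction complex, the TREX export complex and the cap-binding complex, 5 (41.7%) were higher and 7 missed the threshold. Of all tested genes 20.7% were higher. The class median was 0.13. Alyref2, a mouse relative of the export adaptor Alyref, had the largest fold change of all members: 2.77, 2.86 and 3.51 CPM in LPD livers against 1.38, 1.65 and 2.22 CPM in SPD livers (0.81 ± 0.15, adjusted p = 0.000493), without overlap. Its level is low and its counts were not whole in 12 of 12 libraries, so its value is uncertain. Alyref itself, with whole counts in every library, had 7.76, 10.5 and 12.7 CPM in LPD livers against 5.87, 7.42 and 8.20 CPM in SPD livers (0.50 ± 0.14, adjusted p = 0.00952), with overlap. With LPD replicate 1 counted as SPD the log2 fold change of Alyref was 0.31 and its call was lost (adjusted p = 0.187).

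Rbm8a, the exon junction subunit Y14, had 31.5, 33.6 and 36.6 CPM in LPD livers against 26.6, 27.9 and 28.7 CPM in SPD livers (0.28 ± 0.049, adjusted p = 0.000386), without overlap. Its partners Magoh (0.04), Magohb (-0.26, adjusted p = 0.340) and the helicase Eif4a3 (0.10) did not pass. Thoc2 (0.27 ± 0.072, adjusted p = 0.00662) and the cap-binding protein Ncbp1 (0.26, adjusted p = 0.0119) were higher with overlap, and Thoc2 was not called in the SP1 and LP4 livers (adjusted p = 0.123), while Ncbp2 (-0.06) and Thoc3 (-0.16, adjusted p = 0.0518) did not pass.

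Of the 8 members without a role class, 4 were tested: Rp9 was higher (0.27 ± 0.063, adjusted p = 0.00341), and Naa12 (0.08), Thoc2l (0.46, adjusted p = 0.0639) and Gm49396 (0.65 ± 0.30, adjusted p = 0.0929) did not pass. Gm49396 had 0.820 to 1.46 CPM in LPD livers against 0.261 to 1.01 CPM in SPD livers, the lowest level per kb of the tested members. The 4 members that were not tested are Eif4a3l1, Gm21293 and Gm4340, listed at 0 counts in all 12 libraries, and Gm7879, with 3 counts in all. The 89 tested members whose counts were whole in every library included 39 higher (43.8%) and 4 lower, against 19.7% higher and 20.9% lower among all tested genes of that kind, and the 34 with counts that were not whole included 17 higher and 17 that did not pass.

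**Figure D3:**
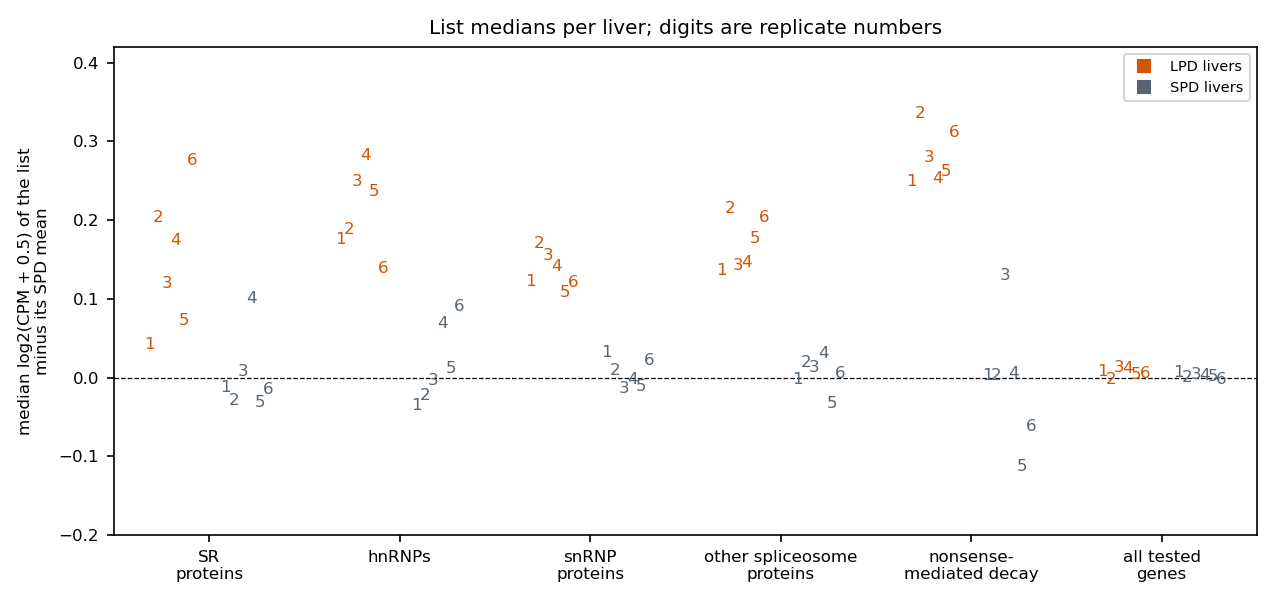
Median, over the genes of each group, of log2(CPM + 0.5) minus the gene's SPD mean (vertical axis), for each LPD liver (orange) and SPD liver (grey), with digits for replicate numbers. The LPD livers lie above all SPD livers for hnRNPs, snRNP proteins, other spliceosome proteins and nonsense-mediated decay, overlap with them for SR proteins, and lie level with them for all tested genes.

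The shift per liver differed in spread between classes. Over snRNP proteins the median deviation was 0.11 to 0.17 in LPD livers and -0.014 to 0.032 in SPD livers, and over hnRNPs it was 0.14 to 0.28 in LPD livers and -0.035 to 0.090 in SPD livers. Over SR proteins the ranges overlapped, at 0.042 to 0.28 in LPD livers and -0.031 to 0.10 in SPD livers. LPD replicate 2 was the highest LPD liver for 20 of the 56 risers, and LPD replicates 6, 1 and 5 were the lowest for 14, 13 and 13 of them, so the livers that stood apart on component 1 were not at 1 end. The median coefficient of variation of a member within a diet was 7.33% in LPD livers and 7.70% in SPD livers.

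Genes that work with the spliceosome but lie outside the map were counted from 7 lists drawn up by role. In LPD livers 68 of the 120 tested (56.7%) were higher and 4 (3.33%) lower, with a median of 0.21, beside 20.7% and 19.2% of all tested genes. The 11 genes of nonsense-mediated decay, which degrades transcripts with premature stops, had 10 higher, and all 11 were above 0. Smg5 had 36.2, 39.2 and 50.1 CPM in LPD livers against 22.1, 27.8 and 29.4 CPM in SPD livers (0.60 ± 0.087, adjusted p = 8.26e-05). Upf1, the helicase of the pathway, had 62.4, 65.2 and 75.6 CPM in LPD livers against 46.0, 48.7 and 51.9 CPM in SPD livers (0.45 ± 0.055, adjusted p = 1.61e-05). Neither gene overlapped between the diets. Smg1, the kinase that phosphorylates Upf1, was the 1 gene that did not pass (0.16, adjusted p = 0.0512).

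Of 22 hnRNPs outside the map, 13 were higher and 9 did not pass. Hnrnpf had 217, 230.4 and 249.9 CPM in LPD livers against 169, 171 and 185 CPM in SPD livers (0.40 ± 0.050, adjusted p = 1.80e-05), and Ptbp1, a repressor of many exons, had a log2 fold change of 0.42 ± 0.050 (adjusted p = 1.37e-05). Hnrnpul2 was higher too (0.30 ± 0.047, adjusted p = 0.000150). Deposited counts of Hnrnpf were not whole in 12 of 12 libraries, which makes its values less certain. Of 34 tested splicing regulators, 19 were higher and 2 lower, with Taf15 (0.56 ± 0.059, adjusted p = 4.68e-06), Rbm10 (0.54 ± 0.070, adjusted p = 2.66e-05) and Ewsr1 (0.39 ± 0.051, adjusted p = 3.06e-05) among the higher. Mbnl2, a muscleblind protein, had 37.5, 42.7 and 51.8 CPM in LPD livers against 56.0, 60.1 and 69.9 CPM in SPD livers (-0.46 ± 0.076, adjusted p = 0.000238), without overlap, and Rbpms was lower with overlap (-0.44 ± 0.11, adjusted p = 0.00398). In the SP1 and LP4 livers Rbpms was at -0.28 and not called (adjusted p = 0.110). The cold-induced genes Rbm3 (-0.03) and Cirbp (0.03) did not pass.

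Of 22 kinases of SR proteins and SR-related speckle proteins, 15 were higher and 1 lower. The risers included the U1-associated Luc7l (0.68 ± 0.10, adjusted p = 0.000132) and Luc7l2 (0.42 ± 0.062, adjusted p = 8.67e-05) and the SR protein importer Tnpo3 (0.34 ± 0.051, adjusted p = 0.000115). Among the kinases, Srpk2 was lower, with 13.8, 15.6 and 17.0 CPM in LPD livers against 16.9, 18.4 and 21.03 CPM in SPD livers (-0.25 ± 0.068, adjusted p = 0.00955), with slight overlap, and 2 alternatives did not call it. Deposited counts of Srpk2 were not whole in 12 of 12 libraries, which makes its values less certain. Dyrk1a (0.32, adjusted p = 0.00112) and Prpf4b (0.29, adjusted p = 0.00529), also kinases, were higher with overlap. Srpk1 (0.13), Clk1 (0.09), Clk2 (0.15), Clk3 (0.05) and Clk4 (0.17, adjusted p = 0.0544) did not pass.

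The snRNP assembly factors gave 8 higher of 19, and 11 did not pass. Gemin2, which holds Sm proteins for loading by the SMN complex, had 16.1, 21.1 and 23.5 CPM in LPD livers against 9.82, 11.6 and 12.1 CPM in SPD livers (0.84 ± 0.089, adjusted p = 4.68e-06), without overlap. Ddx20 (0.53 ± 0.095, adjusted p = 0.000470) and Wdr77 (0.29 ± 0.059, adjusted p = 0.00122) were higher as well. Of 10 proteins of the minor spliceosome, which removes a rare class of introns, 3 were higher (Zrsr2, Zrsr1 and Snrnp48, with log2 fold changes of 0.39, 0.35 and 0.24) and 1 was lower. Over all tested genes 20.7% were higher and 19.2% lower, and in a list this short a single call shifts the share widely. The call of Snrnp48 was lost in 20 of the 23 alternatives, and those of Zrsr1 and Zrsr2 in 1 each. The lower one, Snrnp25, had 0.773, 1.505 and 1.65 CPM in LPD livers against 2.19, 2.81 and 3.96 CPM in SPD livers (-1.15 ± 0.21, adjusted p = 0.000448), without overlap. Of the nuclear RNAs Malat1 (0.30) and Neat1 (-0.37), neither passed.

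**Figure D4:**
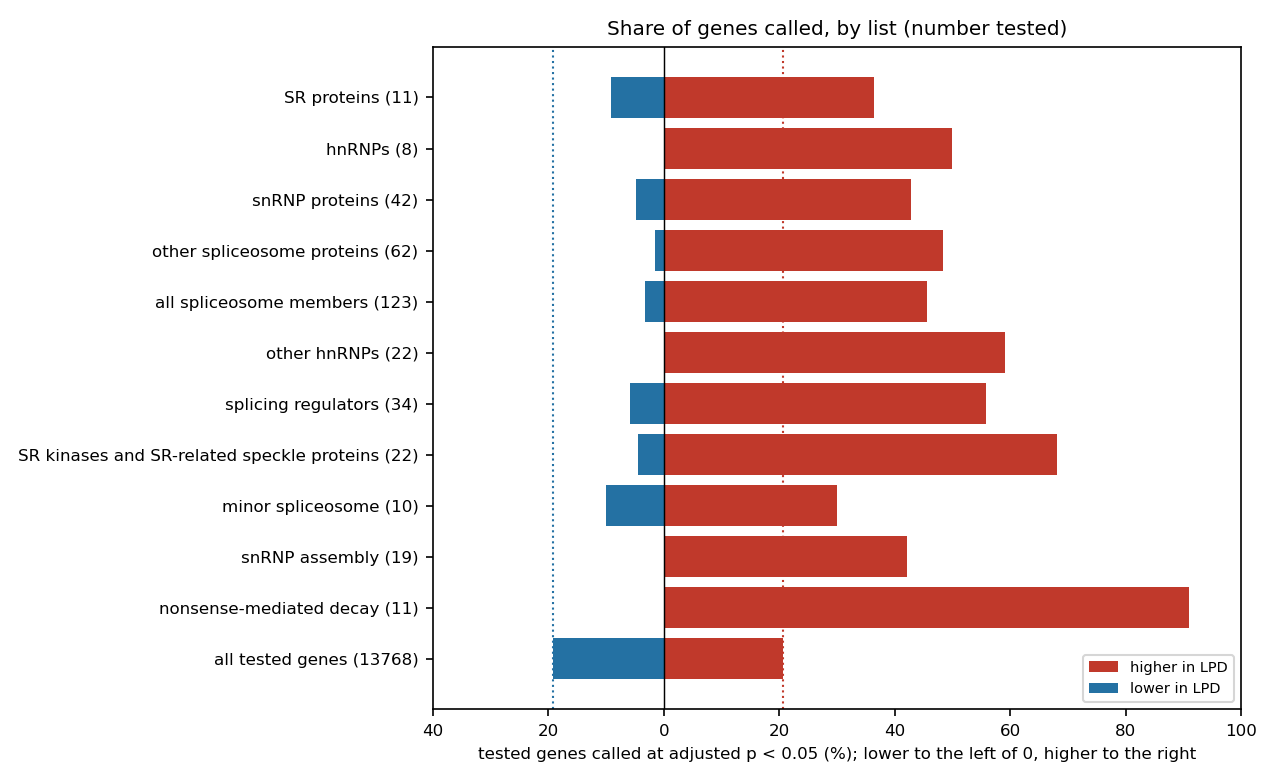
Share of tested genes called higher (red, right of 0) and lower (blue, left of 0) in LPD livers at an adjusted p under 0.05, in percent, for the spliceosome groups, 6 related lists and all tested genes, with the number tested in brackets and dotted lines at the shares of all tested genes. The higher share exceeds 20.7% in every list shown, from 30.0% for the minor spliceosome to 90.9% for nonsense-mediated decay, and the lower share is below 19.2% in each. The list of speckle and paraspeckle RNAs, with 0 of 2 called, is not shown.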

How the data were processed

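Livers of 6 LPD and 6 SPD ob/ob mice gave 1 RNA sequencing library each, from TRIzol RNA with a TruSeq kit, per the labels' protocols. The submitters' processing notes name TopHat, DESeq2 and mm10, with no versions. How reads were counted, on which annotation and with what use of strand is not given in the sources used here. Deposited by the authors were expected counts (estimated counts per gene, not scaled between libraries), of which 17.1% to 18.9% of nonzero values per library were not whole. The authors' gene lengths were deposited too and were used for CPM per kb.

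The rounded counts went into edgeR 4.0.16 (R 4.3.3): filterByExpr (minimum count 10, minimum total 15), TMM scaling, and the quasi-likelihood F test of LPD against SPD with no further term, adjusted by Benjamini-Hochberg over 13768 genes and called under 0.05. Each SE was taken from F, as the size of the log2 fold change over the root of F. Counts are summed per gene, so exons, introns and isoforms are not told apart. Pairwise comparison of the 66 pairs of libraries found no pair as alike as sampling noise (smallest chi-square per gene 7.93). Positions are from GENCODE M21 (all 127 members matched) and promoters from RefSeq, both on GRCm38. The fit was tested on simulated data first.

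The members, role classes and related lists were chosen with earlier results of these data known, so no p-value is given for a list. Named genes are every SR, hnRNP and Sm gene of the map, up to 4 called genes per direction in each class with 8 or more tested members (up to 2 in smaller ones), the most abundant gene per kb of each class, the 5 highest and 5 lowest fold changes, up to 3 per direction of each related list, and a fixed set of well-known splicing genes. Some genes under the rule are not reported here. Genes named beyond it were picked with their values in view. Alternatives were 3 other scalings, 2 other filters, the DESeq2 1.42.0 Wald test, limma 3.58.1 voom with sample weights, a replicate block, each library left out, and the library and label doubts named in the report. P-values set the difference between the diets against the spread between livers of the same diet, in these 12 livers.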

Additional observations from a re-analysis of the deposited data

Results flagged for a closer look

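For each of 91 named genes, the highest and lowest liver of each diet was compared with the other 5 by the gap relative to the whole range (Dixon's 95% critical value for 6 samples). Of 182 groups, 13 held a liver beyond it, and chance alone gives about 1 in 20.

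LPD replicate 2 was the outlying liver in 5 of these groups, high in each: Snrpd1 at 12.5 CPM (other LPD livers 8.62 to 9.77), Luc7l at 35.0 CPM (24.3 to 25.7), Snrnp48 at 8.80 CPM (7.41 to 7.83), Upf1 at 75.6 CPM (62.4 to 67.1) and Smg5 at 50.1 CPM (36.2 to 40.2). It is 1 of the 2 livers that stood apart on the first principal component. The other, LPD replicate 5, was low for Lsm8 at 4.16 CPM (5.61 to 6.34). LPD replicate 6 was high for Smndc1 at 22.1 CPM (18.2 to 19.3), and LPD replicate 3 for Gm49396 at 1.46 CPM (0.820 to 1.005).

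Among SPD livers, replicate 3 was high for Tnpo3 at 39.7 CPM (other SPD livers 36.5 to 37.1) and for Snrnp48 at 7.92 CPM (5.77 to 6.50), and low for Bud31 at 35.6 CPM (40.5 to 42.5). SPD replicate 1 was low for Sf3a3 at 13.6 CPM (15.6 to 15.9), and SPD replicate 5 for Magohb at 1.09 CPM (1.74 to 2.09). Without LPD replicate 2, 51 members were called higher, and without SPD replicate 3, 58.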

How the results depend on the processing

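The 56 members called higher became 39 to 68 over the 23 alternatives, lowest in the SP1 and LP4 libraries alone and highest with total counts in place of TMM. The DESeq2 Wald test and limma-voom gave 56 each, and leaving out 1 library 50 to 60. The call of 4 lower members was less stable: 1 with total counts, 1 with no filter, 2 with the replicate block, 2 without LPD replicates 2 and 5, 0 in the SP1 and LP4 libraries and 0 with LPD replicate 1 counted as SPD, and 1 to 4 leaving out 1 library (2 without LPD replicate 2, 5 or 6, and 1 without SPD replicate 2). For SR proteins total counts gave 7 higher, and the SP1 and LP4 libraries gave 2 higher and 0 lower; counting LPD replicate 1 as SPD gave 0 lower. For snRNP proteins the 2 lower became 0 with total counts, with no filter, in the SP1 and LP4 libraries and with LPD replicate 1 as SPD, 1 with the replicate block and without LPD replicates 2 and 5, and 0 to 2 leaving out 1 library. For the other proteins the 1 lower became 2 with DESeq2 size factors, upper quartile scaling, the filter of 1 CPM in 6 libraries and the DESeq2 Wald test, 0 with total counts, no filter, the replicate block, without LPD replicates 2 and 5, in the SP1 and LP4 libraries and with LPD replicate 1 as SPD, and 0 to 2 leaving out 1 library. In the SP1 and LP4 libraries, which are fewer, 44 related genes were higher, and 1827 of all genes were higher and 1693 lower. With total counts the member median was 0.21, that of all genes 0.051, and 63.5% of all calls were higher, against 51.9% with TMM. Some of these settings have fewer samples, and the cause of the differences between settings was not tested.

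Same-numbered LPD and SPD livers did not deviate together (r from -0.054 to 0.097). In 5 of 6 cases the LPD liver was closest to an SPD liver of another number. SPD replicate 6 was the closest for LPD replicates 1, 3, 4 and 6. The labels state no pairing by number, and a comparison of 6 livers per diet cannot exclude one. The replicate block gave 57 members higher and 2 lower. Genes near 0 changed sign without being called: Hnrnpk was at -0.00021 with DESeq2 size factors, -0.0085 with upper quartile scaling, -0.00054 with the 1 CPM filter, -0.00023 with DESeq2, -0.020 with LPD replicate 1 as SPD and -0.012 to 0.028 leaving out 1 library. Rbmx was at -0.0050 without LPD replicates 2 and 5 and -0.035 in the SP1 and LP4 libraries, where Clk1 was at -0.092 and Cirbp at -0.070. Cirbp ranged from -0.047 to 0.086 leaving out 1 library. Rbm3 was at 0.030 with total counts, 0.021 with limma-voom, 0.11 without LPD replicates 2 and 5 and -0.0759 to 0.060 leaving out 1 library. Of the log2 fold changes of the 91 named genes under the alternatives, 1928 kept their direction and side of the threshold, 115 lost the call, 28 gained one and 21 changed sign. Protein sequence features of the members were planned and not run. The filter left out 4 members, 3 of them at 0 counts in all 12 libraries and 1 with 3 counts in all.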
